A study of Mus musculus with 12 samples.

Results

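Integrin subunits were examined in cells sorted from the brains of old mice, as the rows of the count matrix for 10 genes of this family: Itgam, Itgal and Itgb2, the leukocyte integrins, Itgav, Itgb3 and Itgb5, the αv group, and Itgb1, Itga4, Itga6 and Itga9. They are 10 of the 47643 gene identifiers in the matrix and 10 of the 26 integrin subunit genes looked up, and the other 16 are given further on. The samples came from 5 male p16-3MR mice on a C57BL/6 background, aged 113, 115, 116, 116 and 116 weeks (mice 1 to 5). In this strain a transgene under the p16 promoter carries a red fluorescent protein, RFP, and the viable brain cells of each mouse were sorted into those of low fluorescence (RFPneg, called RFP Low in the study) and those of high fluorescence (RFPpos, RFP High). Each mouse is in both groups, so that the comparison is between 2 gates on cells of the same brains. The transgene marks promoter activity and not a cell type, and the cells of both gates are mixtures. Cdkn2a, the gene that encodes p16, had 8 counts in the RFPneg samples together and 0 in the RFPpos samples, too few to check the gates, and transcripts of the transgene were not examined here. The 2 single-cell samples of the series were not analysed here.

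Integrins are receptors of the cell surface in which an α and a β subunit pair to bind a ligand outside the cell and link it to the actin cytoskeleton. The β2 subunit pairs with αM, αL or αX on leukocytes, and αMβ2, also called CD11b/CD18 or complement receptor 3, is a standard surface marker of microglia. The αv subunit pairs with β1, β3, β5, β6 or β8 to bind vitronectin, fibronectin or latent transforming growth factor β, and β1 pairs with many α subunits that bind laminins, collagens, fibronectin and VCAM-1. Binding is switched on from inside the cell, when talins and kindlins attach to the tail of the β subunit.

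Each count is a tag near the 3′ end of a transcript. Levels are in CPM, a gene's counts per 1000000 counts on all genes in that library, and because each transcript gives its tag at the end, CPM needs no division by length and was used to order genes within this tag scale. The libraries held 177287 to 415834 counts on genes in RFPneg and 222560 to 289713 in RFPpos, so that 1 count was worth about 2 to 6 CPM and the weak subunits rest on few counts. All 10 genes had the 10 counts over the 10 samples that were required for a test. Differences were tested with edgeR's quasi-likelihood test with the mouse as a block, over 12270 genes, and a gene was called at a Benjamini-Hochberg adjusted p under 0.05.

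With TMM scaling, 5 of the 10 genes were called higher in RFPpos, against 4.27% of all genes tested, and these were Itgam, Itgb2, Itgav, Itgb3 and Itgb5. A single gene, Itga4, was called lower, against 7.49% of all genes tested. Itga6, Itgb1, Itga9 and Itgal were not called. The median log2 fold change of the 10 genes was 1.08, beside −0.15 for all genes tested. The counts depended on what the libraries were scaled to. When library sizes were taken from 20 microglia marker genes, the median of all genes moved by −1.15, and 0 of the 10 genes were called higher in edgeR, against 0.114% of all genes, while 4 were called lower (Itgal, Itga4, Itga6 and Itgb1), against 47.1% of all genes. At an unadjusted p under 0.05 this scaling also gave 0 of the 10 genes higher and 4 lower, where 25 and 6609 of the 12270 genes tested passed. With library sizes that include the reads assigned to no gene, the shift of the median was −0.23, and the calls over all genes became 305 higher and 1239 lower, where TMM gave 524 and 919, with 3 of the 10 integrin genes among the higher ones. In bulk samples such as these, fewer cells of a type and less RNA per cell cannot be told apart.

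**Figure D1:**
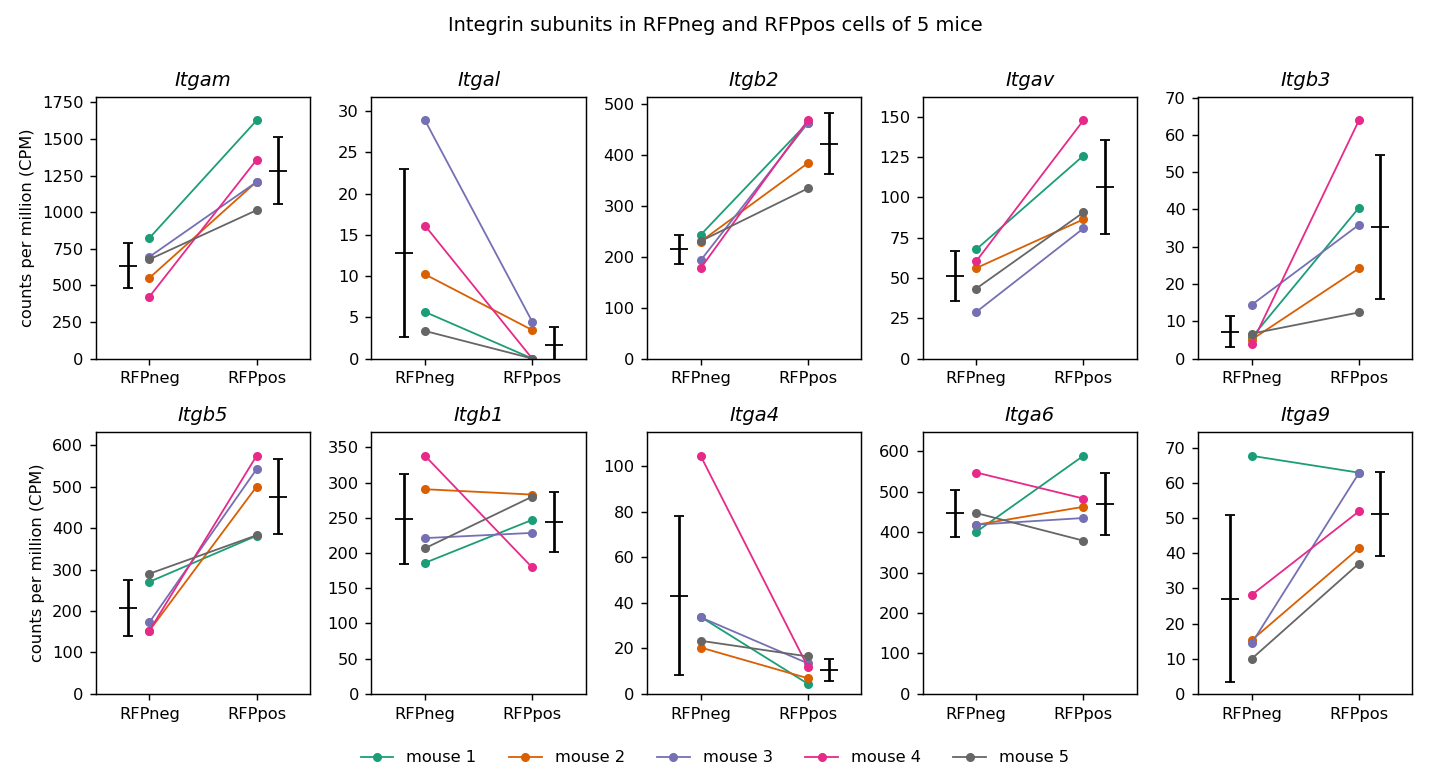
CPM of each of the 10 integrin genes (vertical axis, from 0) in the RFPneg and RFPpos sample of each mouse (points joined by a line per mouse), with the mean and SD of 5 samples beside them. Lines for Itgam, Itgb2, Itgav, Itgb3 and Itgb5 go up in all 5 mice on this scale, those of Itga4 and Itgal go down in all 5, and those of Itga6 and Itgb1 cross.

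Itgam (ENSMUSG00000030786; GRCm38 chromosome 7, 128062640 to 128118491, plus strand) encodes αM, and had the highest level of the 10 genes in both groups. It was at 824, 551, 695, 423 and 677 CPM in the RFPneg samples of mice 1 to 5 and at 1627, 1208, 1206, 1357 and 1013 CPM in the RFPpos samples. All RFPpos values lay above all RFPneg values, with mouse 1 the highest in each group, and mouse 4 had the lowest RFPneg value. The log2 fold change was 1.11 ± 0.19 (SE, adjusted p = 5.06e-07 in edgeR), and relative to the microglia genes it was −0.07 (adjusted p = 0.787, in a range of 1.44e-07 to 0.787 over all alternatives). A protein-coding gene model on the same strand, Gm49368, overlaps Itgam and had 4 counts in the 10 samples.

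Itgb2 (ENSMUSG00000000290; chromosome 10, 77530252 to 77565708, plus strand) encodes β2, the partner of αM. Its level was 243, 229, 192, 177 and 230.2 CPM in RFPneg and 463, 383, 462, 467 and 334 CPM in RFPpos. Again the groups did not overlap, and the RFPpos values of mice 2 and 5 were the lowest of their group. Its log2 fold change was 1.05 ± 0.22 (SE, adjusted p = 3.30e-05 in edgeR), and −0.13 relative to the microglia genes (adjusted p = 0.659, in a range of 2.31e-05 to 0.659 over all alternatives).

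Itgal (ENSMUSG00000030830; chromosome 7, 127296260 to 127335138, plus strand) encodes αL, the other common partner of β2, found on lymphocytes, monocytes and neutrophils. It had 1, 2, 12, 4 and 1 counts in the RFPneg samples and 0, 1, 1, 0 and 0 in the RFPpos samples. Mouse 3 held 12 of the 20 RFPneg counts, and the CPM values of the groups overlapped, although each mouse was lower in RFPpos. The ratio of the pooled levels, RFPpos to RFPneg, was 0.109 with a 95% counting interval of 0.0123 to 0.448, which covers counting error only. The difference was not called (adjusted p = 0.204 from edgeR), and was called relative to the microglia genes (adjusted p = 0.00789, in a range up to 0.472 over the alternatives).

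Itgav (ENSMUSG00000027087; chromosome 2, 83724397 to 83806916, plus strand) encodes αv, the shared α subunit of its group. It was at 67.7, 56.1, 28.9, 60.4 and 43.4 CPM in RFPneg and at 126, 86.3, 80.7, 148 and 90.6 CPM in RFPpos. Each RFPpos sample was above each RFPneg sample, with mouse 3 lowest in both groups. With TMM scaling the log2 fold change was 1.14 ± 0.33 (SE, adjusted p = 0.00849 in edgeR). The call was lost with DESeq2's Wald test (0.0930) and with the reads on no gene in the library sizes (0.0613), in a range of 0.00712 to 0.955 over all alternatives, and the fold change was −0.03 relative to the microglia genes.

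Itgb5 (ENSMUSG00000022817; chromosome 16, 33829665 to 33949338, plus strand) encodes β5, which pairs with αv to bind vitronectin and the milk fat globule protein that bridges phagocytes to dying cells. The levels were 271, 153, 173, 153 and 290.3 CPM in RFPneg and 382, 500.5, 542, 575 and 383 CPM in RFPpos. The groups did not overlap, and mice 1 and 5 had both the highest RFPneg and the lowest RFPpos values, so that the 5 differences were unequal. Its log2 fold change was 1.30 ± 0.22 (SE, adjusted p = 1.30e-07 in edgeR), and 0.13 relative to the microglia genes (adjusted p = 0.653, in a range of 1.00e-08 to 0.653 over all alternatives).

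Itgb3 (ENSMUSG00000020689; chromosome 11, 104608000 to 104670476, plus strand) encodes β3, the subunit of the vitronectin receptor αvβ3 and of the platelet fibrinogen receptor. It had 1, 1, 6, 1 and 2 counts in RFPneg and 9, 7, 8, 16 and 3 in RFPpos, or 5.64, 5.10, 14.4, 4.02 and 6.67 CPM against 40.4, 24.2, 35.9, 63.9 and 12.4 CPM. Each mouse was higher in RFPpos, but the RFPpos value of mouse 5 lay below the RFPneg value of mouse 3. The log2 fold change of 2.14 ± 0.70 (SE, adjusted p = 0.0227 in edgeR) rested on 11 and 43 counts. The call was lost when mouse 1 (0.0927) or mouse 4 (0.206) was left out, with DESeq2 (0.108), with the reads on no gene (0.0503) or relative to the microglia genes (log2 fold change 1.00, adjusted p = 0.260), in a range of 0.00805 to 0.260 over the alternatives. Itga2b, the partner of β3 on platelets, had 1 count in all 10 samples, and the platelet marker list, with 1 gene tested, was low in both groups, as given with the marker lists.

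Itgb1 (ENSMUSG00000025809; chromosome 8, 128685654 to 128733200, plus strand) encodes β1, the most widely shared β subunit. It was at 186, 291, 221, 338 and 207 CPM in RFPneg and at 247, 283, 229, 179.7 and 280.1 CPM in RFPpos. The groups overlapped, and 3 of 5 mice were higher in RFPpos, while mouse 4 had the highest value of the 10 samples in RFPneg and the lowest in RFPpos. Over the pairs the log2 fold change was 0.06 with a 95% interval of −0.38 to 0.50 (adjusted p = 0.934 from edgeR). Relative to the microglia genes it was −1.12 (adjusted p = 3.40e-05, in a range up to 0.994 over the alternatives), close to the shift of the median gene.

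Itga6 (ENSMUSG00000027111; chromosome 2, 71745616 to 71858416, plus strand) encodes α6, a laminin receptor subunit of endothelial cells, platelets and some leukocytes. Its level was 400.5, 418, 418, 547 and 447 CPM in RFPneg and 589, 463, 435, 483 and 379 CPM in RFPpos. The groups overlapped over most of their range, and mouse 1 had the lowest RFPneg and the highest RFPpos value. The difference, as log2 fold change, was 0.14 with a 95% interval of −0.26 to 0.54 (adjusted p = 0.799 from edgeR), and −1.04 relative to the microglia genes (adjusted p = 1.87e-05, in a range up to 0.986 over the alternatives).

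Itga4 (ENSMUSG00000027009; chromosome 2, 79255426 to 79333123, plus strand) encodes α4, which with β1 binds VCAM-1 and fibronectin and serves blood leukocytes in leaving the vessel. It was at 33.8, 20.4, 33.7, 105 and 23.4 CPM in RFPneg and at 4.49, 6.90, 13.4, 11.98 and 16.5 CPM in RFPpos. The groups did not overlap, though mouse 4 alone held 26 of the 57 RFPneg counts and mouse 5 differed least. Its log2 fold change was −1.76 ± 0.62 (SE, adjusted p = 0.0413 in edgeR), and −2.91 relative to the microglia genes (1.28e-05). The call was lost without mouse 1 (0.103), 2 (0.0629), 3 (0.0898) or 4 (0.412), with DESeq2 (0.149) and with thinned counts (0.195), in a range of 1.28e-05 to 0.412 over the alternatives. Over the mice left out, the fold change ranged from −2.16 to −1.28. Cerkl overlaps Itga4 on the opposite strand and had 9 counts, and the counting's use of strand is not given in the sources used here.

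Itga9 (ENSMUSG00000039115; chromosome 9, 118606690 to 118901003, plus strand) encodes α9, which pairs with β1 to bind tenascin-C and VCAM-1. It was at 67.7, 15.3, 14.4, 28.2 and 10.01 CPM in RFPneg and at 62.9, 41.4, 62.8, 51.9 and 37.1 CPM in RFPpos. In 4 of 5 mice the RFPpos value was higher, and mouse 1 had the highest RFPneg value, above all RFPpos values. Averaged over mice it had a log2 fold change of 1.20 with a 95% interval of 0.26 to 2.14 (adjusted p = 0.0864 from edgeR) and was not called. An antisense gene model, Gm2415, overlaps it and had 8 counts in all.

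**Figure D2:**
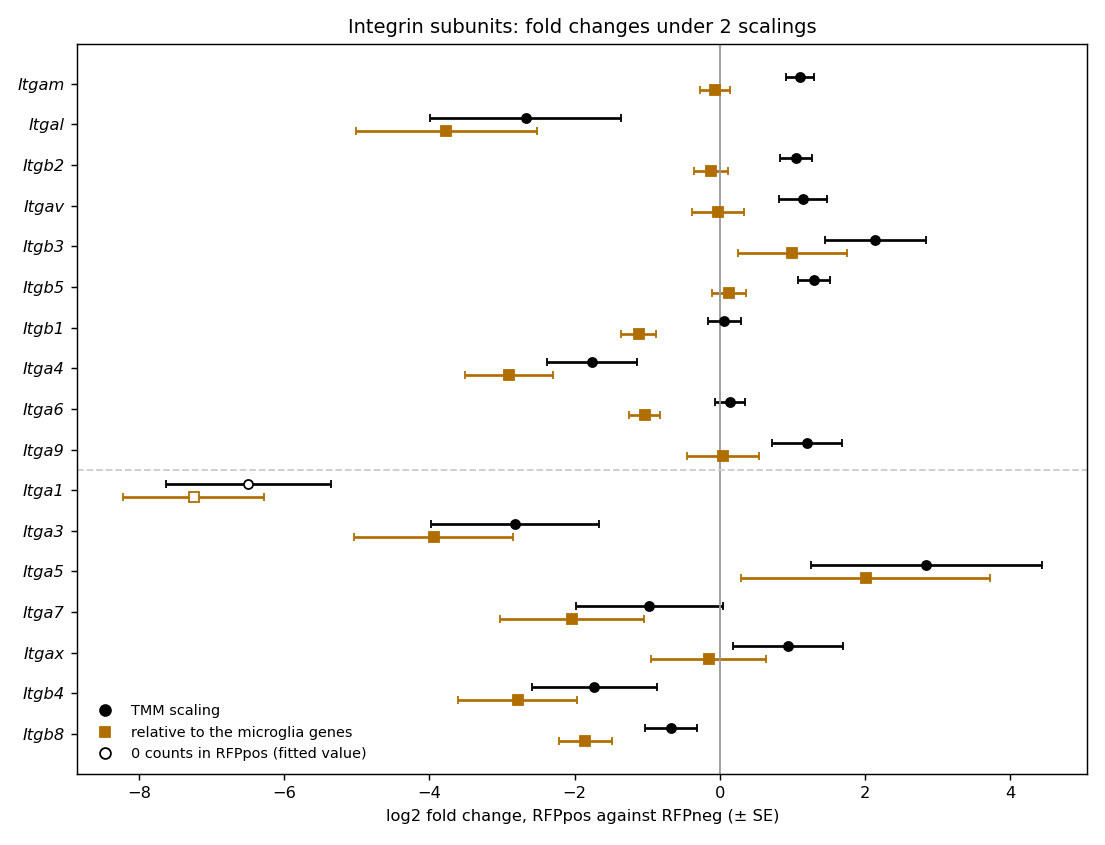
Log2 fold changes of RFPpos against RFPneg (horizontal axis, ± SE) for the 10 integrin genes, above the dashed line, and the 7 other tested subunits, below it, with TMM scaling (circles) and relative to the microglia genes (squares). With the second scaling Itgam, Itgb2, Itgav, Itgb5 and Itga9 lie near 0 and Itgb1 and Itga6 near −1, and the open symbols of Itga1 are fitted values of a gene with 0 counts in RFPpos.

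The order of levels differed between the groups. In RFPneg the mean was highest for Itgam, 634 ± 153 CPM (SD, n = 5), followed by Itga6 (446 ± 58.9), Itgb1 (249 ± 63.6), Itgb2 (214 ± 28.1) and Itgb5 (208 ± 67.1). The ranges of Itgam and Itga6 overlapped, as did those of Itgb1, Itgb2 and Itgb5, while Itga6 lay above Itgb1 in all samples. The remaining 5 genes had means from 7.17 CPM for Itgb3 to 51.3 CPM for Itgav, with each range overlapping the next. In RFPpos Itgam (1282 ± 228) lay above all others, and Itgb5 (477 ± 89.8), Itga6 (470 ± 77.2) and Itgb2 (422 ± 60.4) followed with overlapping ranges. Itgb1 (244 ± 42.5) and Itgav (106 ± 29.1) each stood apart from their neighbours, and Itga4 (10.7 ± 4.89) and Itgal (1.59 ± 2.20) were last. Thus Itgb1 was the leading β subunit by mean in RFPneg and stood behind Itgb5 and Itgb2 in RFPpos, though in RFPneg the spread of the 3 β subunits does not order them.

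Shares of the subunit counts do not depend on the scaling between libraries. Of the counts on all 8 β subunits, Itgb5 held 33.3%, 18.2%, 25.7%, 20.5% and 32.6% in the RFPneg samples and 33.7%, 40.7%, 38.5%, 41.7% and 35.9% in the RFPpos samples, higher in 5 of 5 mice. Itgb2 went from 27.1% ± 2.37 to 34.0% ± 4.00 (SD, n = 5 each), also higher in 5 of 5 mice. Itgb1 was at 22.9%, 34.5%, 32.9%, 45.4% and 23.2% in RFPneg and at 21.8%, 23.0%, 16.2%, 13.04% and 26.3% in RFPpos, higher in 1 of 5 mice (mouse 5). Itgb8 held 11.3% ± 3.80 in RFPneg and 4.46% ± 3.26 in RFPpos. Together the β subunits had 792 ± 85.1 CPM in RFPneg and 1243 ± 149 CPM in RFPpos. Among the counts on the 18 α subunits, Itgam held 56.4%, 47.0%, 53.7%, 32.1% and 52.5% in RFPneg and 66.7%, 66.3%, 64.0%, 63.7% and 64.9% in RFPpos. The Itgam share differed by 24 points between RFPneg samples and by 3 points between RFPpos samples, and Itga6 had 34.3% ± 5.16 and 23.9% ± 1.07, lower in RFPpos in 5 of 5 mice.

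**Figure D3:**
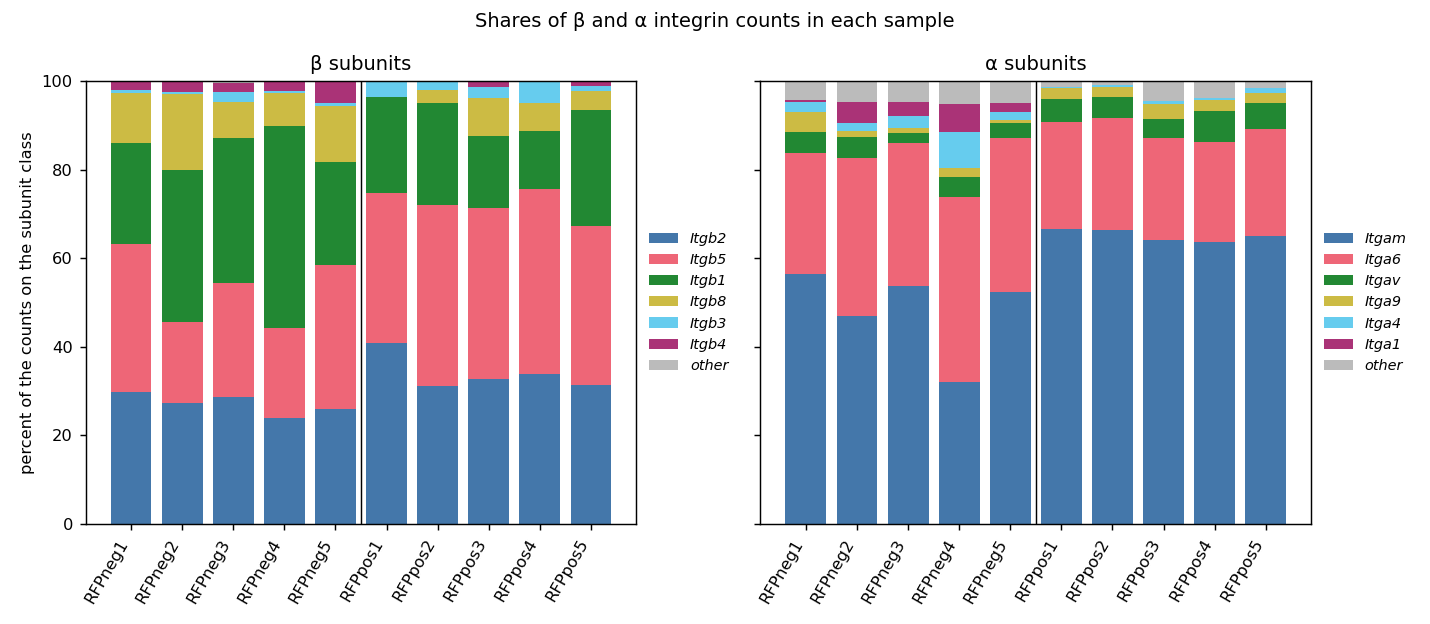
Percent of the counts on β subunits (left) and α subunits (right) held by each subunit in each of the 10 samples, as stacked bars. In the RFPpos bars Itgb5 and Itgb2 take more and Itgb1 less than in most RFPneg bars, and Itgam takes between 63.7% and 66.7% in all 5.

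Ratios of subunits within a sample were compared with no test. The log2 ratio of Itgb2 to Itgb1 was 0.38, −0.34, −0.20, −0.93 and 0.15 in RFPneg and 0.90, 0.43, 1.01, 1.37 and 0.25 in RFPpos. It was higher in RFPpos in 5 of 5 mice, by 0.98 on average (SD 0.84), and mouse 4 differed most and mouse 5 least. Without mouse 4 the mean difference was 0.65, and over all mice left out it ranged from there to 1.20. The log2 ratio of Itgam to Itgav, the leading α subunits of their groups, averaged 3.60 ± 0.67 in RFPneg and 3.59 ± 0.28 in RFPpos (SD, n = 5 each), with 3 of 5 mice higher and a mean difference of −0.01 (SD 0.53). The log2 ratio of Itgal to Itgam, with 0.5 added to each count, was −5.64 ± 1.17 in RFPneg and −8.64 ± 0.92 in RFPpos, lower in 5 of 5 mice. For this ratio the RFPpos values rest on 2 Itgal counts, and the size of the difference depends on the count added.

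**Figure D4:**
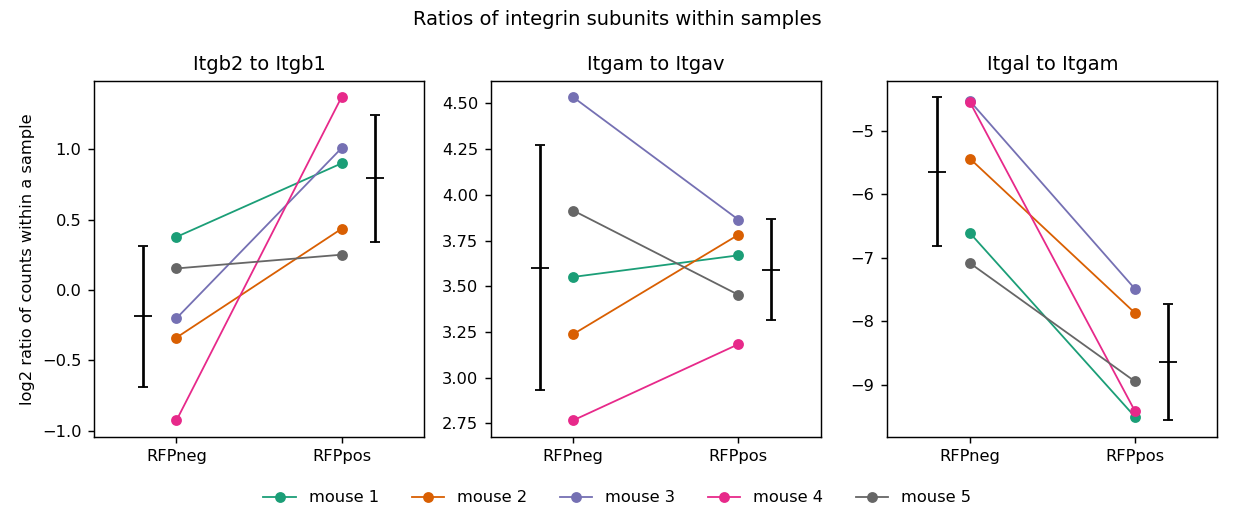
Log2 ratios of the counts of a pair of integrin genes within each sample (vertical axis, a separate scale per panel), joined by mouse, with mean and SD of 5 samples. Itgb2 to Itgb1 goes up in every mouse, Itgam to Itgav goes up in 3 and down in 2, and Itgal to Itgam goes down in every mouse.

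Promoter sequences are shown for Itgam, Itgav and Itgb5, which were called higher together with TMM scaling, and for Itgb1, which was not called. RefSeq promoters (GRCm38.p6) were matched for 6 of the 10 genes, these 4, Itga4 and Itga9. Itgb2, Itgal, Itga6 and Itgb3 were not matched. The core letters bound by PU.1, an Ets family factor of the myeloid lineage, were searched as GAGGAA on both strands in the 250 bases before the start site, and 7639 of 32851 promoters (23.3%) held at least 1 match. Matches are in capitals, as GAGGAA or, for the other strand, TTCCTC. The windows, all on the plus strand, are chr7:128062390-128062639 for Itgam, chr2:83724147-83724396 for Itgav, chr16:33829415-33829664 for Itgb5 and chr8:128685404-128685653 for Itgb1.
Itgam: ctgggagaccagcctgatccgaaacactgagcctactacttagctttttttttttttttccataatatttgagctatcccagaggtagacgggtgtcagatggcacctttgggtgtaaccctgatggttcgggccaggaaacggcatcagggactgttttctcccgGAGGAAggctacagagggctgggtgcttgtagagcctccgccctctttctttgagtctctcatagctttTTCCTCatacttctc
Itgav: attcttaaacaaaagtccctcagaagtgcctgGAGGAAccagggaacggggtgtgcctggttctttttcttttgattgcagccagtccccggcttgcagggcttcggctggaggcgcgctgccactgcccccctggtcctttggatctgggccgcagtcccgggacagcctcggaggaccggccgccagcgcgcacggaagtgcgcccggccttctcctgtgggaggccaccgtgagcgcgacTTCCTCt
Itgb5: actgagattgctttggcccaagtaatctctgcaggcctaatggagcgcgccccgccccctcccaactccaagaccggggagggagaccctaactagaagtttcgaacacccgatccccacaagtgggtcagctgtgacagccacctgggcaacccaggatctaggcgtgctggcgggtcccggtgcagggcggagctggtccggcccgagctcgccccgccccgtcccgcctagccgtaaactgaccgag
Itgb1: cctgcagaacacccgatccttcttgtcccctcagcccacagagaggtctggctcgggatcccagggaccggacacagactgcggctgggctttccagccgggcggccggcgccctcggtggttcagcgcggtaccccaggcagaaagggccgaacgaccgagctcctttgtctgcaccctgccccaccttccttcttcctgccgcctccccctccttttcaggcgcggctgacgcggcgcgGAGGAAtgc
Itgam had 2 matches, beginning 84 and 15 bases before the start site, Itgav had 2, at 218 and 7 bases, and Itgb1 had 1, at 9 bases. Itgb5 and Itga4 had 0 in this window. The RefSeq start of Itga9 lies inside the gene as GENCODE gives it, and its window, which is not before the gene's first base, had 0 too. The letters were thus present before genes called higher and before a gene not called, and a match is a description of the window and not a site of binding.

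Of the 16 other integrin subunits, 7 had at least 10 counts and were tested. Itga1, the α subunit of the collagen and laminin receptor α1β1, had 1, 11, 17, 21 and 8 counts in RFPneg and 0 in each RFPpos sample. Against a limit of 3 counts over the RFPpos group it was at least 17.8-fold lower (adjusted p = 4.27e-07 from edgeR), and it was called lower in 14 of 14 alternatives that tested it. Pelo lies within Itga1 on the same strand and had 55 counts of its own. Of the 7 genes, 0 were called higher in edgeR, against 4.27% of all genes, and 1 was called lower, against 7.49%. At an unadjusted p under 0.05 the counts were 0 higher and 3 lower, beside 990 and 1696 of all genes, and with DESeq2 0 and 1, beside 276 and 573. The median log2 fold change was −0.97, beside −0.15 for all genes. Itgb8, whose αvβ8 pair activates latent transforming growth factor β, had 16, 28, 23, 14 and 34 counts in RFPneg and 0, 11, 27, 22 and 11 in RFPpos. These values overlapped, with mouse 1 at 0 in RFPpos, and were not called (log2 fold change −0.67, adjusted p = 0.253 from edgeR, but −1.24 and 0.0431 without mouse 3). Its fold change ranged from −1.24 to −0.27 over the mice left out, and the adjusted p from 3.45e-06 to 0.788 over all alternatives. Itga3, a laminin receptor subunit, had 21 and 3 counts, a pooled ratio of 0.156 with a counting interval of 0.0297 to 0.521. It was not called (adjusted p = 0.0980 from edgeR, but 0.0285 with the likelihood ratio test, in a range of 0.00143 to 0.303). Itgb4, the partner of α6 in hemidesmosomes, had 30 and 8 counts (adjusted p = 0.212), and Itga7 19 and 9 (0.676). Itgax, which encodes αX, also called CD11c, had 16 and 25 counts (0.556), and Itga5, the fibronectin receptor subunit, 1 and 15, of which 11 in mouse 4 (0.293). The other 9, Itga2, Itga2b, Itga8, Itga10, Itga11, Itgad, Itgae, Itgb6 and Itgb7, had at most 3 counts each over the 10 samples.

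Of 34 genes for adaptor and signalling proteins that work with integrins inside the cell, 32 were tested. Of these, 7 were called higher (against 4.27% of all genes tested), 6 lower (against 7.49%) and 19 were not called. Their median log2 fold change was −0.04. Apbb1ip, Fyb, Vav1, Ptk2b, Tln1 and Tns3 were among the genes called higher. Apbb1ip, which brings talin to the membrane on activated Rap1, was at 276 ± 103 CPM in RFPneg and 813 ± 145 CPM in RFPpos (SD, n = 5 each), with groups that did not overlap. Its log2 fold change was 1.67 (adjusted p = 6.20e-14 from edgeR), and it was the 1 gene of the list called higher relative to the microglia genes (0.50, adjusted p = 0.0467, the highest value of its range from 1.17e-13). Tln1, talin itself, was at 192 ± 34.2 and 305 ± 24.8 CPM, a log2 fold change of 0.76 that was not called without mouse 5 (0.0742), with DESeq2 (0.0928) or with the reads on no gene (0.150), in a range from 0.0114. Fyb, an adaptor of immune cells, had 1.26, Vav1, an exchange factor for Rac, 1.62, and Ptk2b, the kinase Pyk2, 0.98, of which Ptk2b was not called with DESeq2 (0.0984) or with the reads on no gene (0.0803), in a range of 0.00835 to 0.622. Relative to the microglia genes the fold changes of Ptk2b and Tln1 turned to −0.19 and −0.42.

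The genes called lower were Fermt2, Parvb, Lims2, Vcl, Rasgrp2 and Bcar1. Fermt2, the kindlin of most adherent tissues, was at 194 ± 32.03 CPM in RFPneg and 54.1 ± 27.2 CPM in RFPpos, with no overlap (log2 fold change −1.78, adjusted p = 4.75e-08 from edgeR). Fermt3, the kindlin of blood cells and microglia, had 61 and 97 counts, a log2 fold change of 0.82 that was not called (adjusted p = 0.141). Parvb, a parvin that binds integrin-linked kinase, had −2.02, and Vcl, vinculin, −1.70, the second not called without mouse 2 (0.138, in a range from 7.60e-09). Lims2, an adaptor of the same kinase complex, had 34 counts in RFPneg and 0 in RFPpos, at least 10.4-fold lower against 3 counts over the group. Rasgrp2, which activates Rap1 in platelets and neutrophils, had 33 and 3 counts, a pooled ratio of 0.0990 with a counting interval of 0.0194 to 0.315, and was not called without mouse 1 (0.0510), 3 (0.0754) or 5 (0.0847) or with thinned counts (0.0623), in a range from 3.29e-05.

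Of 37 genes for integrin ligands, 26 were tested, with 1 called higher (against 4.27% of all genes tested), 9 lower (against 7.49%) and 16 not called, and a median log2 fold change of −1.21. Fn1, fibronectin, the ligand of α4β1, α5β1 and αv integrins, had 28, 67, 119, 114 and 74 counts in RFPneg and 0, 6, 2, 12 and 0 in RFPpos. The groups did not overlap, and the log2 fold change was −4.29 ± 0.34 (SE, adjusted p = 1.41e-34 in edgeR). Vcam1, the ligand of α4β1 on vessel walls, had −1.57, and its groups overlapped through RFPneg of mouse 1 and RFPpos of mouse 4. The basement membrane collagens Col4a1 and Col4a2 had −2.09 (−3.23 without mouse 3, the range being −3.23 to −1.62 over the mice left out) and −2.98, and Mfge8, the bridging ligand of αvβ3 and αvβ5, −1.18. Icam2, Edil3, Vtn and Col1a2 were the other 4 called lower. F11r, a junction protein bound by αLβ2, was the gene called higher, at 569.8 ± 130 and 1059 ± 222 CPM (log2 fold change 0.97, adjusted p = 1.78e-05 from edgeR, and −0.20 relative to the microglia genes).

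Of 10 genes for membrane proteins that sit beside integrins, most of them tetraspanins, all were tested, with 5 called higher (against 4.27% of all genes tested), 1 lower (against 7.49%) and 4 not called, and a median log2 fold change of 0.50. Sirpa, an inhibitory receptor of myeloid cells that binds CD47, had 1.26 (adjusted p = 3.45e-08 from edgeR) and groups that did not overlap. Its fold change was 0.09 relative to the microglia genes, where it was not called (adjusted p = 0.742 from edgeR). The tetraspanins Cd53, Cd63, Cd81 and Cd9 had 0.71, 0.62, 0.61 and 0.55, with adjusted p-values from 0.00966 to 0.0398. Relative to the microglia genes the calls of 3 of these reversed. Cd9 (−0.62, adjusted p = 0.00792 from edgeR), Cd63 (−0.56, 0.0124) and Cd81 (−0.56, 0.0201) were called lower, while Cd53 (−0.47, 0.0738) was not called. With this scaling 47.1% of the genes tested were called lower. The middle value over the genes tested was −1.29, so these tetraspanins fell less than the typical gene. Their higher calls with TMM scaling changed when single mice were left out. Cd53 was not called without mouse 2 (0.115, in a range over all alternatives of 4.87e-04 to 0.172), nor Cd63 without mouse 3 (0.0969, in a range of 0.00210 to 0.265). Cd81 was lost without mouse 3 (0.0642) or 4 (0.163), in a range of 0.00713 to 0.296. Cd9 was called higher in 3 of 14 alternatives other than the microglia scaling, with adjusted p-values from 0.0307 to 0.398 over these 14, and was lost without mouse 2 (0.103), 3 (0.187) or 4 (0.0815) and with each other scaling, filter and test tried. Cd151, the tetraspanin partner of α3 and α6 integrins, was called lower with −1.10 (adjusted p = 0.0376 from edgeR), but not without mouse 2 (0.375), 3 (0.129), 4 (0.0711) or 5 (0.0723), in a range of 5.96e-08 to 0.375.

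Marker genes of the cell types that the gates could hold were looked up beside these results. All 20 microglia genes were called higher, against 4.27% of all genes tested, with a median log2 fold change of 1.27. Their summed level was 22201, 14936, 15843, 14501 and 20659 CPM in RFPneg and 42025, 36871, 38753, 36945 and 32237 CPM in RFPpos, with Ctss the most abundant. Mice 1 and 5 had the highest RFPneg sums, the mice whose Itgb5 differed least. Other members did not share this order. Itgam differed least in mice 5 and 3, Itgb2 in mice 5 and 2, and Itgav in mice 2 and 1. The groups did not overlap in the microglia sum, and by an exact permutation test within mice p was 0.063, the smallest that 5 pairs allow. The median of 1.27 stands beside log2 fold changes of 1.05 to 1.30 for Itgam, Itgb2, Itgav and Itgb5. Itgb3, also called higher, had 2.14 on few counts. The 20 microglia genes themselves ranged from 0.71 (Tyrobp) to 1.72 (Fcrls).

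All 10 monocyte and neutrophil genes were called lower, against 7.49% of all genes tested, with a summed level of 2719, 2958, 7474, 4431 and 2503 CPM in RFPneg and 58.4, 114, 215, 3.99 and 4.12 CPM in RFPpos. S100a8 was the most abundant in RFPneg and S100a9 in RFPpos, and Ltf, Ly6c2 and Chil3 had 0 counts in RFPpos. Mouse 3 was highest in RFPneg here as in Itgal counts. Of 10 lymphocyte genes 7 were tested and 2 called lower, against 7.49% of all genes tested. The lymphocyte sums were 491, 163, 317, 354 and 367 CPM against 179.7, 189.8, 193, 271 and 235 CPM, higher in RFPpos in mouse 2 alone (exact permutation p = 0.125). Most of the lymphocyte sum was Ighm, and Cd3e, Cd3g, Cd3d, Cd79a, Nkg7, Trbc2 and Cd8a had 0 counts in RFPpos. These cells carry Itgal and Itga4, and neutrophils and monocytes carry Itgam and Itgb2 too.

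All 10 endothelial genes were called lower, against 7.49% of all genes tested, with sums of 1709, 5421, 5740.3, 7232 and 4388 CPM in RFPneg and 80.9, 173, 193, 359 and 255 CPM in RFPpos. Flt1 was the most abundant in RFPneg and Cldn5 in RFPpos, and all 10 had counts in RFPpos. Mouse 4 was highest and mouse 1 lowest in both groups, and in RFPneg the same mice had the highest and lowest values of Itgb1 and the highest and lowest Itga6 and Itga1. In RFPpos this match was absent. There mouse 4 had the lowest Itgb1 (179.7 CPM), mouse 1 had the highest Itga6 (589 CPM), and Itga1 had 0 counts in each sample. Lower calls were also made for 8 of 10 mural genes (sum 375 ± 121 against 22.0 ± 18.8 CPM, with 6 genes at 0 in RFPpos), 5 of 5 tested fibroblast genes (575 ± 189 against 65.2 ± 63.0), 9 of 9 oligodendrocyte genes (2139 ± 955 against 282 ± 103) and 4 of 4 tested erythrocyte genes (1173 ± 578 against 56.2 ± 49.6). Of 10 astrocyte genes 4 were called lower (4570 ± 724 against 3841 ± 1968), with RFPpos of mouse 1 lowest at 921 CPM, the sample in which Itgb8 had 0 counts. Of 7 neuron genes 3 were called lower and of 2 tested choroid plexus and ependyma genes 1. As for the other lists above, the share called lower over all genes tested was 7.49%. With each mouse left out the lower calls ranged from 4 to 8 for the mural, 3 to 4 for the fibroblast, 2 to 5 for the astrocyte and 1 to 4 for the neuron genes, beside 660 to 825 of all genes. DESeq2 gave 4, 3, 2 and 1, beside 573 of all genes. Astrocyte genes called higher ranged from 0 to 1 over the mice left out, beside 403 to 514 of all genes. The border macrophage genes had 236 ± 14.4 and 256 ± 74.2 CPM and the 6 platelet genes, of which 1 was tested, 17.6 ± 19.1 and 18.8 ± 13.4 CPM, with 0 called in edgeR's main fit and 0 with DESeq2 in both lists. At an unadjusted p under 0.05, 1 of 8 border macrophage genes was lower, beside 1696 of the 12270 genes tested. A border macrophage gene was also called lower with the likelihood ratio test and with the reads on no gene, beside 1187 and 1239 of all genes. Relative to the microglia genes 2 were called lower, against 47.1% of all genes. The part of these cell types in the integrin results was not tested.

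**Figure D5:**
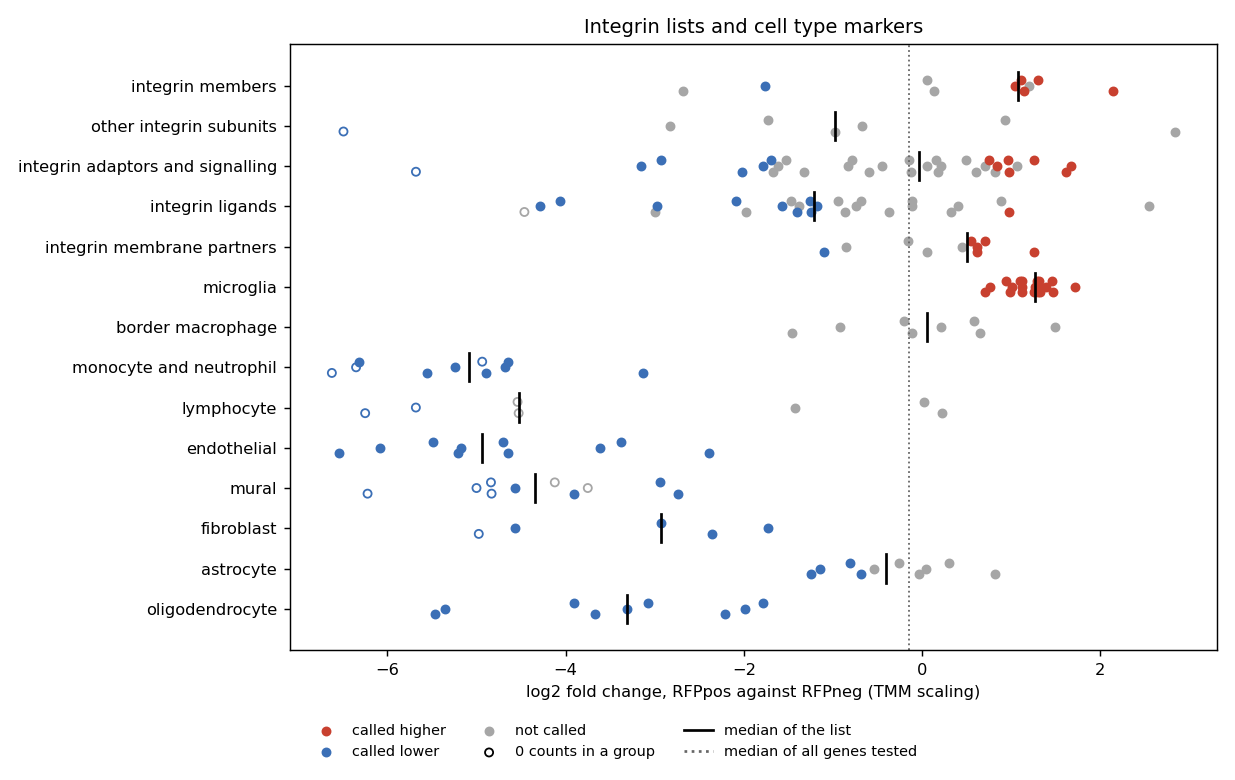
Log2 fold changes of RFPpos against RFPneg with TMM scaling (horizontal axis) for the tested genes of each list, 1 point per gene (red called higher, blue lower, open with a group at 0 counts), with the median of each list as a bar and that of all genes, −0.15, as a dotted line. The microglia genes and 8 of the 10 integrin genes lie above 0 with this scaling, and relative to the microglia genes 3 of the 10 do, and endothelial, mural, monocyte and neutrophil genes lie below −2.

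Genes of like pattern were looked up for the 5 members with at least 200 counts, by the root mean square difference between the log2 differences of the 5 mice, among 2171 genes. Closest to Itgam were Cyfip1, P2ry12 and Fcer1g, at 0.17 each. Itgb2 was closest to Rgs2 (0.07), Fcgr1 (0.17) and Ctsl (0.19), and Itgb5 to Rps6ka1 (0.19), Sall1 (0.19) and Sirpa (0.21). P2ry12, Fcer1g and Sall1 belong to the 20 microglia genes. Itga6 was closest to Tubb5 (0.14), Arpc3 (0.16) and Clcc1 (0.16), and Itgb1 to Ano6 (0.11), Srek1 (0.13) and Pnisr (0.20). This is a description over 5 mice with no test.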

How the data were processed

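The authors sequenced the sorted cells as QuantSeq FWD libraries with molecular identifiers and counted reads per gene with Lexogen's pipeline for them. What they deposited are raw counts, which were used here as they are; the annotation is not given in the sources used here. Reads on no gene, 34.9% ± 2.24 of the reads in RFPneg and 41.5% ± 4.27 in RFPpos (SD, n = 5 each), and ambiguous reads, 0.396% and 0.330%, stayed out of the library sizes. Symbols were found for 47224 of 47643 identifiers in the GENCODE M21 annotation (GRCm38), the source of all coordinates.

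Genes with at least 10 counts over the 10 samples were tested with edgeR 4.0.16 in R 4.3.3 (glmQLFit and glmQLFTest, TMM scaling, mouse as a block, Benjamini-Hochberg adjustment over all genes tested); standard errors were derived from the F statistic. DESeq2 1.42.0 was an alternative. The fit was tested on simulated counts, drawn with a single dispersion for all genes (0.1039), no differences between mice and most genes unchanged. These counts are simpler than the real samples, so the shares called need not hold for the real samples. At an absolute log2 fold change of 1, 7 of 95 changed genes were called, and 6 of 25 with a mean of at least 20 counts. At 2, these were 44 of 90 and 19 of 19. Of 12005 unchanged genes 2 were called. No pair of samples of a group agreed within sampling noise. The samples were paired because both populations came from the same mice; the samples' departures from their group means correlated within mice by 0.21, −0.04, 0.14, 0.00 and 0.02, and without the replicate block 541 genes were called higher and 1011 lower.

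Ratios within samples used an added 0.5 counts. Marker list levels were compared by exact permutation within mice, 32 assignments. A count of 0 was taken to allow 3 counts over a group, for counting error only. All 10 integrin genes were named. Of the other lists the genes called were named, though not all of the adaptors, with values for at most 5 in each direction of smallest p, and every other integrin with 10 counts. Like-pattern genes were the 3 of smallest difference. The members and lists were chosen with earlier results of these data known, and the lists come from general knowledge of integrins and of cell types. Alternatives were other scalings, filters and tests, thinned counts, and each mouse left out.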

Additional observations from a re-analysis of the deposited data

Results flagged for a closer look

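Samples were compared within each group in 112 sets of 5 values, and a sample stood apart in 10 of them, where about 5.6 (1 in 20) would do so by chance. Among the integrin genes, Itga4 had 105 CPM in RFPneg of mouse 4, against 20.4 to 33.8 CPM in the other RFPneg samples. The lower call of Itga4 was lost without that mouse (log2 fold change −1.28, adjusted p = 0.412 from edgeR, in a range of 1.28e-05 to 0.412). It was also lost without mouse 1, 2 or 3, with log2 fold changes of −1.63, −1.80 and −1.86. Itgb3 had 14.4 CPM in RFPneg of mouse 3, which is 6 counts, against 4.02 to 6.67 CPM in the others. Itga5 had 3.34 CPM, 1 count, in RFPneg of mouse 5 and 0 in the others, and any single count among zeros stands apart. The number given for chance does not allow for such sparse counts. Itgb4 had 43.4 CPM in RFPneg of mouse 5, against 14.4 to 20.4 CPM.

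Of the adaptors and ligands, Apbb1ip had 451 CPM in RFPneg of mouse 1 (others 202 to 274), Fermt2 137 CPM in RFPneg of mouse 4 (others 204 to 214), Rasgrp2 36.7 CPM in RFPneg of mouse 5 (others 19.2 to 24.1) and Col4a1 98.6 CPM in RFPpos of mouse 3 (others 0 to 27.9). The border macrophage list summed to 383 CPM in RFPpos of mouse 2 (others 202 to 251), and the choroid plexus and ependyma list to 1617 CPM in RFPpos of mouse 4 (others 162 to 437).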

How the results depend on the processing

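Of 610 recomputed values of the named genes, 522 kept their direction and their side of the threshold. Itgam, Itgb2 and Itgb5 were called higher in 14 of 14 alternatives other than the microglia scaling. Without the replicate block the integrin members gave 5 higher and 1 lower, as with it, beside 541 and 1011 of all genes. The cause of the following changes was not tested, except where fewer genes or mice were fitted or the threshold itself changed.

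Relative to the microglia genes 14 genes were called higher and 5785 lower in all, 0 and 4 of the integrin members, 4 of the other subunits lower, 1 and 17 of the adaptors, 0 and 20 of the ligands, and 0 and 7 of the partners. Log2 fold changes turned to −0.0689 for Itgam, −0.13 for Itgb2, −0.0270 for Itgav, −1.04 for Itga6, −1.12 for Itgb1, −0.16 for Itgax, −0.19 for Ptk2b, −0.42 for Tln1, −0.20 for F11r, −0.47 for Cd53, −0.56 for Cd63, −0.56 for Cd81 and −0.62 for Cd9. With the reads on no gene counted, 305 genes were called higher, with 3 members, 3 adaptors and 1 partner, and Itga6 had −0.0931 and Itgb1 −0.17. With library size only, 442 genes were called higher in all, with 3 partners, and Itgb1 had −0.0153.

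With DESeq2's Wald test 276 genes were called higher and 573 lower, with 3 and 0 members, 3 adaptors higher, and 2 and 0 partners. With filterByExpr, which leaves 4210 genes, 489 were called lower, with 0 members, 0 other subunits, 3 adaptors and 5 ligands, and Itgb1 had −0.0218. Neither Itga4, Itgb3 nor Itga1 was tested there. The likelihood ratio test called 1187 genes lower in all, with 2 other subunits. Thinned counts gave 768 genes lower in all, with 0 members and 0 partners, and the fit on all genes with a count gave 834, with 0 partners. A call that also needs an absolute log2 fold change above 1 gave 343 genes higher, 3 adaptors, 0 ligands and 1 partner. With each mouse left out, all genes called higher ranged from 403 to 514 and lower from 660 to 825, the members called higher from 4 to 5 and lower from 0 to 1, the other subunits lower from 1 to 2, the partners higher from 2 to 5 and lower from 0 to 1. Itga6 ranged from −0.0132 to 0.25 and Itgb1 from −0.0676 to 0.33. The log2 ratio of Itgal to Itgam differed by −4.31 with 0.1 added to each count and by −2.04 with 2 added, in place of −3.00. Leaving out mice for the marker lists and subunit shares was chosen after seeing the data. With 5 mice, leaving 1 out cannot move a mean difference by as much as its SD between mice. A comparison with that SD thus could not show a change, and only the ranges of the mean differences, RFPpos minus RFPneg, are given. The astrocyte sum ranged from −1343 to −157 CPM, lymphocyte from −163 to −78.2 and choroid plexus and ependyma from −2154 to −995. Border macrophage ranged from −8.71 to 31.7 and platelet from −2.77 to 8.22. The Itgb1 share ranged from −15.4 to −6.55 points.

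Depth limits Itgal, Itgb3, Itga4 and Itga9, which had 22 to 93 counts over 10 samples.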
